A study of Mus musculus with 2 samples.

Results

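The genes described here are 6 members of a set named for eosinophils: the eosinophil-associated ribonuclease genes Ear1, Ear2, Rnase2a, Ear6 and Ear10, and the receptor gene Siglecf. They were taken by symbol from both count matrices, where all 6 were found among 32285 listed genes. The members had been chosen from earlier results of the same matrices, in which Ear1, Ear2 and Siglecf were higher in macrophages of the drug-treated library, so their levels and ratios are given as descriptions.

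The ribonucleases of this family are small secreted enzymes of the RNase A superfamily. Eosinophils store them in granules together with eosinophil peroxidase and major basic protein, and mouse alveolar macrophages are known to express Ear1 and Ear2 in the healthy lung. Rnase2a, Ear6 and Ear10 are further copies of the same locus family. Siglecf encodes Siglec-F, a surface lectin that binds sialylated glycans and signals through inhibitory motifs recognised by tyrosine phosphatases; it is a standard surface marker of mouse eosinophils and of alveolar macrophages, which clear surfactant and inhaled particles from the air spaces.

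Single-cell RNA counts were made from the lower left lobe of lungs of ICR mice, an outbred stock, which were males aged 6 to 8 weeks. One library came from mice given lipopolysaccharide (LPS), a bacterial cell wall component that inflames the lung, and the other from mice given LPS and miconazole, an azole antifungal drug, by intraperitoneal injection (labelled MCZ_ip, here LPS_MCZ). The drug's dose is stated as 0.2 mg/kg with the sample but as 1 mg/kg where the treatment is described. Both libraries therefore carry LPS, no untreated library was analysed here, and the tissue of all mice of a group was pooled into 1 library, so that treatment and library cannot be told apart and no test between the groups was possible. How many mice were pooled, how much LPS they got and when is not given in the sources used here.

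In LPS, the library held 12577 cell barcodes and 90597705 unique molecular identifiers (UMIs, each standing for 1 captured transcript) and the LPS_MCZ library 8500 barcodes and 68467793 UMIs, with medians of 5701 and 6102 UMIs per barcode. After filters, 12075 and 8314 cells remained, of which 62.7% and 69.0% were neutrophil-like. Cells were clustered without the 6 members and named from other markers, so member levels played no part in which class a cell fell into. The alveolar macrophage-like class held 354 LPS and 266 LPS_MCZ cells with all 12 of its markers detected in both libraries, and the classical monocyte-like class 890 and 647 cells with all 9. Of the barcodes, 243 occurred in both libraries, with median depths under 1000 UMIs in both libraries; 54 of them held over 5000 UMIs in 1 library and under 2000 in the other, and 47 of these were the deep copy in LPS_MCZ. Results that rest on these barcodes are given with and without them.

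All 5 ribonuclease genes lie on mouse chromosome 14 in the mm10 build, in GENCODE M21. Ear1 (chr14:43818765-43875517, minus strand), Ear10 (chr14:43922720-43923559, minus strand) and Ear2 (chr14:44102654-44103534, plus strand) are neighbours, and Rnase2a (chr14:51255262-51256112, minus strand) and Ear6 (chr14:51853699-51854643, plus strand) lie further along the chromosome. Siglecf is at chr7:43351341-43359531 on the plus strand. The Ear1 model spans 56753 bases, while the other ribonuclease models span between 840 and 945 bases. The promoters of the 4 ribonuclease genes with the most UMIs are shown because these close copies differed in where and in which library they were read. Each run is the RefSeq sequence on GRCm38.p6, 5′ to 3′ on the gene's strand, from 250 bases before the RefSeq start to 50 after it, and capitals mark the letters CCAAT. Positions are chr14:43819590-43819889 for Ear1, chr14:44102404-44102703 for Ear2, chr14:43923547-43923846 for Ear10 and chr14:51256063-51256362 for Rnase2a.
Ear1 promoter: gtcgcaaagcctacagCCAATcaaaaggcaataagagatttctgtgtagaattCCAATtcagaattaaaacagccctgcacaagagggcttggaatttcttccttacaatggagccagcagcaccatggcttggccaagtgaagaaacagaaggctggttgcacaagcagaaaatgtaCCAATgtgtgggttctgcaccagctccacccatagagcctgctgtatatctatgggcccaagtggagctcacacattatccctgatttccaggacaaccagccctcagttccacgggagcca
Ear2 promoter: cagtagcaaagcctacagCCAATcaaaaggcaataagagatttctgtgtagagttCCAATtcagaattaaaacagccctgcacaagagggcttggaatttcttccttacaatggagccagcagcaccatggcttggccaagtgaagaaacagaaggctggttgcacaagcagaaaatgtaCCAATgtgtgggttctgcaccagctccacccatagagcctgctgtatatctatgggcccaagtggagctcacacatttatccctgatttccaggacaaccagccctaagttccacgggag
Ear10 promoter: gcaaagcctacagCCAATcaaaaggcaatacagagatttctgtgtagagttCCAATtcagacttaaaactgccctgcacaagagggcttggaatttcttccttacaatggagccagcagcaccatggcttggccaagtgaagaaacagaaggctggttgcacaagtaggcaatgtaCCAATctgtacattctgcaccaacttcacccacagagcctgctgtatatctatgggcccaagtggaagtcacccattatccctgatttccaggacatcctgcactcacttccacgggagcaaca
Rnase2a promoter: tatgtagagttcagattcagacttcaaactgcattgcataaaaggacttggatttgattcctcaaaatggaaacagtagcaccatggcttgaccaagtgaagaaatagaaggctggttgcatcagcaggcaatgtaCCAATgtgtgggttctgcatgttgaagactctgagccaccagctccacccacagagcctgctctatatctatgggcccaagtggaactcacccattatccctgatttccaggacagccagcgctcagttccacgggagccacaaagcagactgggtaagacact

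Over their aligned bases the Ear1 and Ear2 promoters were identical at 294 of 297 positions, and that of Ear10 was 92.9% identical to Ear1 and 93.2% to Ear2. Rnase2a was 87.6% identical to Ear1. The letters CCAAT, searched on both strands, occurred at 3 positions in each of Ear1, Ear2 and Ear10, at 1 position in Rnase2a and in Ear6, and at 0 in Siglecf, against 37.4% of 32851 promoters of the same length with at least 1 match. The letters TATAAA (13.6% of promoters), AGATAA (11.2%) and GAGGAAGT (3.20%), on both strands, were in none of the 6 windows. The motifs do not overlap each other in these windows, since only CCAAT was present. Ear1 and Ear2, whose levels in macrophages are described below with those of Ear10, thus have near-identical sequence in these windows. Ear10 is less close to both but has the same number of CCAAT matches. The RefSeq window of Ear1 lies inside its GENCODE model and not at that model's start, so the annotations differ on where Ear1 starts.

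The transcripts are also close copies, which limits how well their reads can be separated. Ear1 and Ear2 transcripts were 96.8% identical over 713 aligned bases, Ear1 and Ear10 93.3%, and Ear2 and Ear10 94.7%, whereas Rnase2a reached 82.2% with Ear2. In the last 400 bases of the transcript, the end that 3′ libraries read, 31.5% of the 90-base stretches of Ear1 also occurred without mismatch in Ear2, Ear10 or the pseudogenes Ear-ps2 and Ear-ps9. For Ear10 this share was 15.4%, for Ear2 1.29%, and for Rnase2a, Ear6 and Siglecf 0%. Counts of Ear1 and Ear10 are therefore uncertain in part, since reads from shared stretches could be dropped or assigned to a copy.

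Ear1, Ear2 and Siglecf were read mainly in alveolar macrophage-like cells in both libraries, and their level there was higher in LPS_MCZ. Levels are UMIs of a gene per 1000000 summed UMIs of a class (CPM), and brackets give 95% intervals for counting error alone. Ear1 gave 1415 UMIs in the LPS macrophages (188 CPM [178, 198]) and 2325 in LPS_MCZ (370 CPM [355, 386]), which was 79.9% and 88.0% of all Ear1 UMIs of the library. Ear2 gave 2193 UMIs (292 CPM [280, 304]) and 3714 UMIs (591 CPM [572, 611]), which was 75.4% and 83.6% of its UMIs. The LPS_MCZ macrophages were thus about 2-fold higher for both ribonucleases, the direction for which these genes had been chosen. Siglecf, the sialic acid receptor, gave 163 UMIs (21.7 CPM [18.5, 25.3]) and 317 UMIs (50.5 CPM [45.1, 56.3]), 62.0% and 76.0% of its UMIs.

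On the log2 scale with a pseudocount of 1 CPM, LPS_MCZ over LPS, Ear1 differed by 0.97, Ear2 by 1.02 and Siglecf by 1.18. The counting intervals of the ratios without the pseudocount were 0.88 to 1.07 for Ear1, 0.94 to 1.10 for Ear2 and 0.94 to 1.501 for Siglecf. Without the barcodes found in both libraries the ratios were 0.99, 1.02 and 1.18. Of the 6 members, 4 reached 50 UMIs over both libraries in this class; 3 were higher by more than 0.5 and 1, Ear10, was lower by more than 0.5. Over all 9737 genes with at least 50 UMIs there, 11.7% were higher and 6.02% lower by that rule, and the median ratio was 0.02. The earlier results that led to this choice of genes used the same contrast, so nothing is read from these counts.

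Ear10 and Ear6 went the other way, and in macrophages nearly all their UMIs came from the LPS library. Ear10 gave 152 UMIs in 33 of 354 LPS macrophages (20.2 CPM [17.1, 23.7]) and 1 UMI in 1 of 266 LPS_MCZ macrophages, and the log2 ratio had a counting interval from -12.30 to -4.49. Ear6 gave 30 UMIs in 18 LPS cells (3.99 CPM [2.69, 5.70]) and 1 UMI in LPS_MCZ, with an interval from -10.00 to -2.06. With 1 UMI in LPS_MCZ only the interval is given for each. Few cells carried these counts: the highest Ear10 cell held 37 UMIs and the highest 5 held 65.1% of them. Without the highest cell, 115 Ear10 UMIs remained in LPS and 0 in LPS_MCZ. Rnase2a was sparse in macrophages, at 11 and 3 UMIs.

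**Figure D1:**
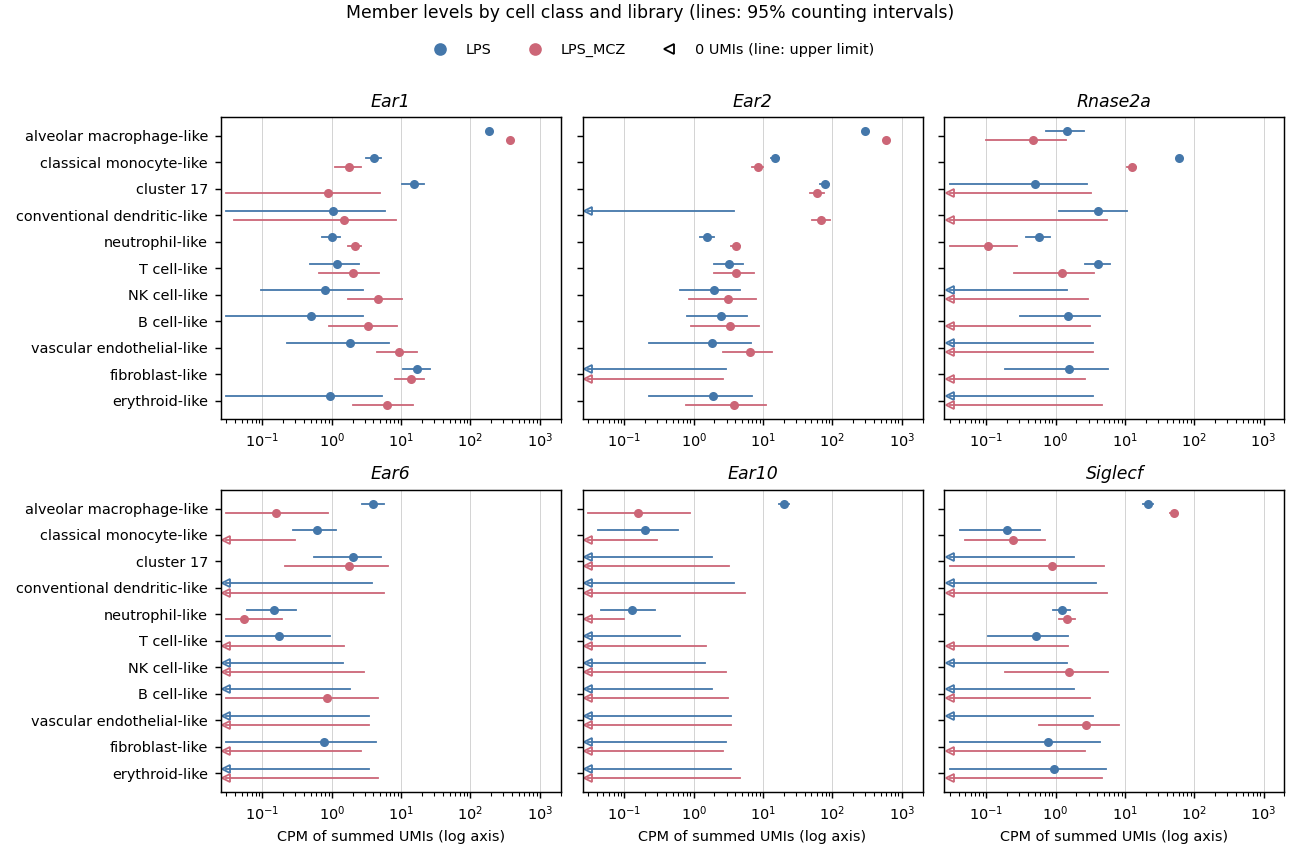
Level of each member by cell class: the x axis is CPM of summed UMIs on a log axis, points are the 2 libraries and lines are 95% counting intervals, with open triangles for classes at 0 UMIs (low-depth clusters, platelet-like and basophil- or mast-like cells are not drawn). Of the classes drawn, Ear1, Ear2 and Siglecf are highest in macrophages, Rnase2a in classical monocyte-like cells (60.9 and 12.5 CPM), and Ear10 stands well above 1 CPM in the LPS macrophages alone.

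Within macrophages most of the difference in Ear1, Ear2 and Siglecf followed 2 clusters that the libraries filled unequally. A finer clustering, at resolution 2.0, put the macrophage-like cells into cluster 10, led by Slc7a2, Lpl and Car4, and cluster 21, led by Plet1, Mrc1 and Plcb1. Leading genes were ranked against the median of all clusters, not between these clusters. Slc7a2, Lpl, Car4, Egfem1 and Plet1 were among the leading genes of both. Cluster 10 held 290 LPS cells and 92 LPS_MCZ cells, 82.2% and 34.1% of the macrophages. Cluster 21 held 63 and 178 cells, 17.8% and 65.9%. All 3 genes were higher in cluster 21 in both libraries.

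In cluster 10 Ear1 reached 139 CPM (LPS) and 122 CPM (LPS_MCZ), and in cluster 21 it reached 454 and 528 CPM. Between clusters the log2 difference was 1.70 in LPS and 2.11 in LPS_MCZ, and within clusters the libraries differed by -0.19 (cluster 10) and 0.22 (cluster 21). Ear2 stood at 203 and 206 CPM in cluster 10 and at 760 and 841 CPM in cluster 21, with library differences of 0.02 and 0.15. Siglecf stood at 13.5 and 20.5 CPM in cluster 10 and at 64.5 and 68.9 CPM in cluster 21, with differences of 0.57 and 0.09. Levels of these genes thus differed more between the clusters than between the libraries within a cluster. The clusters were drawn from the cells of both libraries together, so a difference between libraries can itself shape them. Cluster and library are therefore not independent here.

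With both clusters given equal weight, the log2 ratio of LPS_MCZ over LPS was 0.13 for Ear1, 0.12 for Ear2 and 0.19 for Siglecf. Giving the LPS levels the cluster shares of LPS_MCZ, with no change within clusters, raised Ear1 by 0.80, Ear2 by 0.89 and Siglecf by 1.01 over LPS, against 0.96, 1.02 and 1.17 measured over both clusters. Both calculations take the jointly drawn clusters as given, and why their shares differ was not tested. In cluster 10, 4 members reached 50 UMIs; Siglecf was higher by more than 0.5, where 6.73% of 8768 genes were, and Ear10 was lower, where 5.78% were. In cluster 21, 0 of 4 members were higher by more than 0.5, where 12.9% of 7824 genes were, and Ear10 was lower, where 5.5% were. Summed alveolar macrophage markers were 15103 and 19184 CPM in cluster 10 and 18668 and 16742 CPM in cluster 21. Neutrophil markers summed to 6263 and 5627 CPM in cluster 10 and to 5116 and 10594 CPM in cluster 21; their part in the member levels was not tested.

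**Figure D2:**
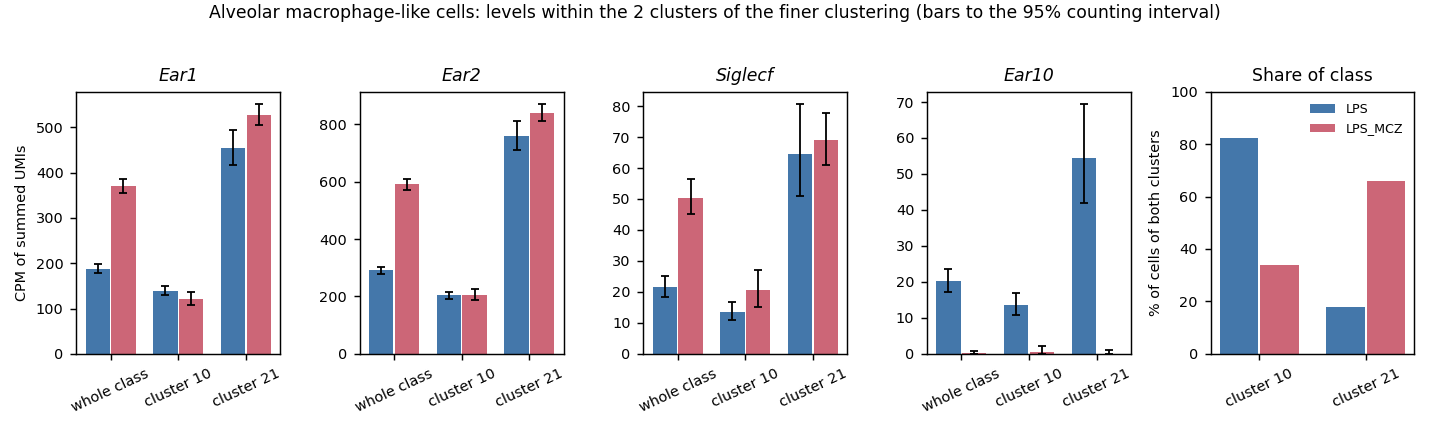
Member levels in the whole macrophage class and in its clusters 10 and 21: bars are CPM of summed UMIs, error bars 95% counting intervals, and the last panel gives each cluster's share of the class in percent of cells. Ear1, Ear2 and Siglecf differ mainly between clusters, and the clusters change places between libraries, while Ear10 is near 0 in LPS_MCZ in both.

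Ear10 was also higher in cluster 21 than in cluster 10 in LPS, by 1.92 on the log2 scale, but its difference between libraries was present in both clusters. In LPS it was read in 28 of 290 cells of cluster 10 (86 UMIs, 13.7 CPM) and in 4 of 63 cells of cluster 21 (65 UMIs, 54.4 CPM), of which 37 UMIs came from 1 cell. In LPS_MCZ it had 1 UMI in 92 cells of cluster 10 and 0 in 178 cells of cluster 21, which allows up to 1.69% of cells with a UMI and sets no limit on cells that express the gene. The LPS_MCZ macrophages had few Ear10 UMIs in the cluster that held most of their cells as well as in the other.

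The LPS macrophages with an Ear10 UMI also held most of the Ear6 UMIs. Among the 33 such cells 39.4% had an Ear6 UMI and together they held 25 of 30 Ear6 UMIs, while 1.56% of the 321 other LPS macrophages had an Ear6 UMI. Another branch of the RNase A superfamily, the angiogenins, was looked at in the same cells after its values had been seen. Ang4 gave 32 UMIs in the 33 cells and 4 in the other 321, Ang5 gave 22 and 6, and Ang2 gave 9 and 8, and none of these 3 genes had a UMI in LPS_MCZ macrophages. Ear2 reached 491 CPM in the Ear10 cells and 268 CPM in the others, and Ear1 reached 212 and 185 CPM. The Ear10 cells were deeper, with a median of 26937 against 21607 UMIs, and 12.1% of them against 17.4% of the others lay in cluster 21. Ear6 shares no 90-base stretch at its transcript end with Ear10.

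Shares of cells with a UMI depend on depth, so each cell was also thinned to 2000 UMIs. The share with Ear1 was then 25.5% (345 LPS cells, 9 left out as too shallow) and 42.5% (266 LPS_MCZ cells, 0 left out), against 72.6% and 84.2% with all UMIs. The Ear2 share was 31.0% and 63.2% (79.4% and 95.1% with all UMIs), and the Siglecf share 3.48% and 8.27% (27.7% and 56.8%). At 1000 UMIs the Siglecf shares were 2.82% (10 LPS cells) and 2.26% (6 LPS_MCZ cells), so no order of the libraries is read from its thinned shares. In T cell-like cells, which should lack these genes, the shares thinned to 2000 UMIs were 0.395% and 0.719% for Ear1, 0.264% and 1.08% for Ear2, and 0.132% and 0% for Siglecf. The median macrophage held 21790.5 and 22882 UMIs, the median T cell-like cell 6001 and 7326. The macrophage shares of Ear1, Ear2 and Siglecf were thus well above those in T cell-like cells, and cells with at least 10 Ear2 UMIs were 20.9% of the macrophages in LPS but 56.4% in LPS_MCZ. Ear10 was seen in 2.32% of thinned LPS macrophages and in 0 of 266 in LPS_MCZ.

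**Figure D3:**
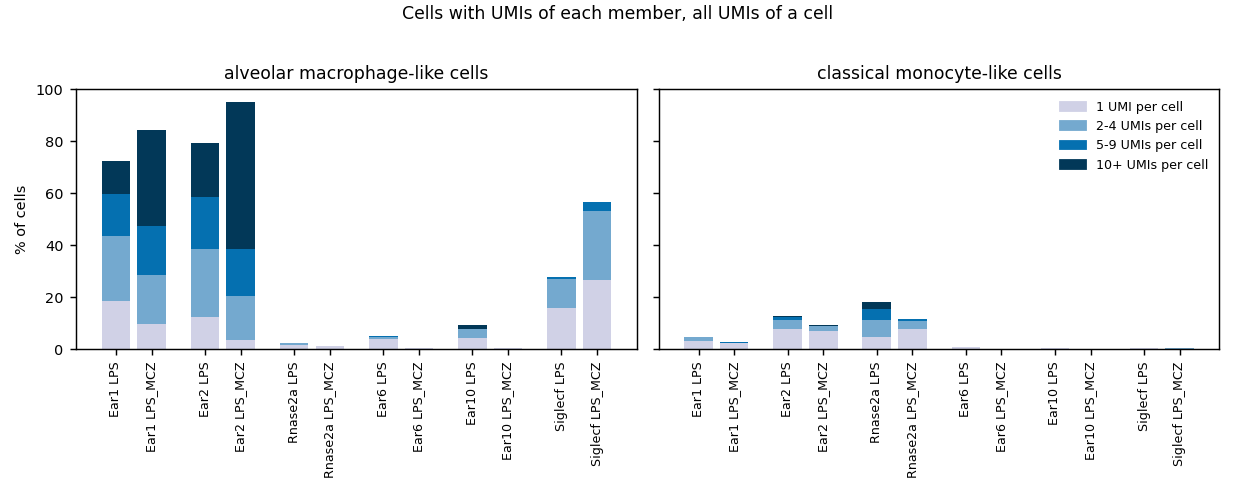
Share of macrophages (left) and classical monocyte-like cells (right) with UMIs of each member, in percent of cells with all UMIs, split by UMIs per cell. Ear1 and Ear2 reach 10 UMIs or more in many macrophages and more often in LPS_MCZ, and Rnase2a is the member with the most such cells among LPS monocytes (2.81%).

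A cluster of 445 low-depth cells, with a median of 904 UMIs and left unnamed for that reason, carried the same members. Its nearest class was the alveolar macrophage, although the immunoglobulin genes Igkc and Igha were also among its leading genes. Ear1 levels were 198 CPM (LPS) and 208 CPM (LPS_MCZ), those of Ear2 242 and 414 CPM, and those of Siglecf 28.1 and 38.8 CPM. Ear10 gave 23 UMIs in 280 LPS cells and 2 in 165 LPS_MCZ cells. In these cells the libraries differed in Ear2 (log2 0.77, counting interval 0.52 to 1.03), and for Ear1 the ratio was 0.07 with an interval from -0.25 to 0.39.

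Rnase2a was the member of the monocytes. It gave 904 UMIs in classical monocyte-like LPS cells (60.9 CPM [57.0, 65.0]), 90.9% of its UMIs in that library, and 155 in LPS_MCZ (12.5 CPM [10.6, 14.6]), 86.1%. The log2 ratio was -2.20 with the pseudocount, with a counting interval from -2.54 to -2.04. The share of cells with a UMI was 18.1% of 890 and 11.7% of 647 cells, and 6.59% and 2.37% after thinning, so the LPS monocytes had more positive cells and more UMIs in each. In T cell-like cells Rnase2a gave 24 LPS UMIs, 20 of them in 1 cell, and 3 LPS_MCZ UMIs. The highest LPS monocyte held 57 of the 904 UMIs, and without the highest cell of each library the ratio was -2.23. Without the barcodes found in both libraries, 904 and 99 UMIs remained and the ratio was -2.67.

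The difference in Rnase2a was present in both clusters of the classical monocyte-like class. In cluster 9, led by F13a1, Ccl2 and Vcan, it was at 62.7 CPM (786 UMIs) and 11.9 CPM (126 UMIs). In cluster 11, which the proliferation genes Top2a and Hist1h1b also led, it was at 50.9 CPM (118 UMIs) and 15.8 CPM (29 UMIs). Monocyte markers summed to 8312 and 7555 CPM, and neutrophil markers to 9351 and 9156 CPM. Of the members, 3 reached 50 UMIs in the class and all 3 were lower by more than 0.5, where 4.11% of 10865 genes were. Cluster 18 of the main clustering, 623 low-depth cells with a median of 732 UMIs, was left unnamed. Its nearest class was the classical monocyte, although Gzma and Gzmb led it and T cell was the second class. Rnase2a went the other way there, with 10 UMIs in 427 LPS cells and 13 in 196 LPS_MCZ cells. Its log2 ratio was 1.31, with a counting interval from 0.07 to 2.72, and rests on few UMIs.

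Ear1 and Ear2 were low in classical monocyte-like cells and lower in LPS_MCZ, opposite to macrophages. Ear2 gave 225 UMIs (15.2 CPM [13.2, 17.3]) in LPS and 104 (8.39 CPM [6.85, 10.2]) in LPS_MCZ, and Ear1 gave 60 (4.04 CPM [3.08, 5.20]) and 22 (1.77 CPM [1.11, 2.69]). The log2 ratios were -0.78 for Ear2 and -0.86 for Ear1. With a stricter cell filter, which redrew the class to 1019 and 721 cells, the Ear2 ratio was 0.0173 and that of Ear1 -0.20, so for Ear2 the direction did not hold under that filter. Ear10 and Siglecf gave 3 UMIs each in LPS monocytes and 0 and 3 in LPS_MCZ, and Ear6 gave 9 and 0.

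Cluster 17 of the main clustering, with all 9 nonclassical monocyte markers detected, was left unnamed because its leading genes included Fabp4 and Pecam1, markers of other classes. It held 220 LPS and 113 LPS_MCZ cells. Ear2 gave 153 UMIs in 64 cells (77.5 CPM [65.7, 90.8]) in LPS and 68 UMIs in 31 cells (60.4 CPM [46.9, 76.6]) in LPS_MCZ, intervals that overlap. Ear2 in these cells lay above its level in classical monocyte-like cells and below that in macrophages in both libraries. Ear1 gave 30 UMIs in 20 LPS cells (15.2 CPM) and 1 UMI in LPS_MCZ, with a counting interval of the log2 ratio from -9.45 to -1.51. Rnase2a gave 1 and 0 UMIs there, against 904 and 155 in classical monocyte-like cells.

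**Figure D4:**
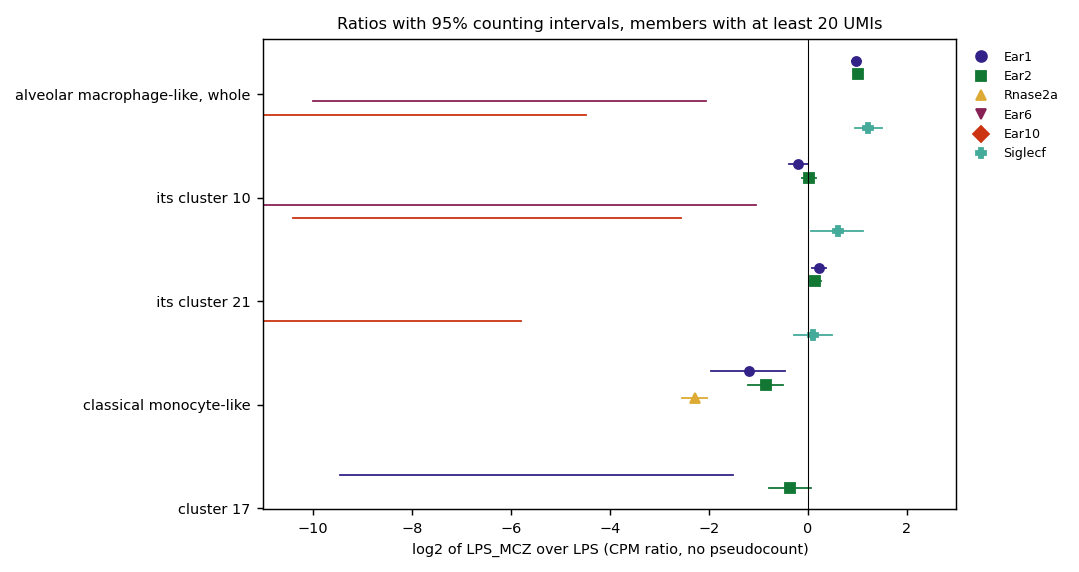
Log2 ratio of LPS_MCZ over LPS of member CPM without a pseudocount, with 95% counting intervals as lines, for members with at least 20 UMIs in a class or cluster. Points are left out where a library held 3 UMIs or fewer, and lines that reach the left edge go on beyond it. Ear1 and Ear2 lie near 1 in the whole macrophage class and near 0 within its clusters, while Rnase2a lies near -2 in monocytes.

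Outside these cells the members were sparse. Ear2 gave 46 UMIs in 7 of 44 conventional dendritic-like cells of LPS_MCZ (69.8 CPM [51.1, 93.1]), 27 of them in 1 cell, and 0 in 75 LPS cells, whose limit, 3 UMIs, was 3.12 CPM. Ear1 gave 22 LPS and 19 LPS_MCZ UMIs in fibroblast-like cells (17.2 and 13.7 CPM), a class whose leading genes included Scgb1a1 and Sftpc. A cluster of the finer clustering led by Igfbp5 and Msln held 19 Ear1 UMIs in 5 of 37 LPS cells and 16 in 8 of 42 LPS_MCZ cells (69.5 and 33.6 CPM), with 0 Ear2 UMIs in both libraries. Neutrophil-like cells, most of each library, were at 1.00 and 2.14 CPM for Ear1, 1.57 and 4.04 CPM for Ear2 and 1.23 and 1.47 CPM for Siglecf. In T cell-like cells Ear1 was at 1.21 and 2.04 CPM and Ear2 at 3.27 and 4.09 CPM, so the Ear2 level of neutrophils did not exceed that of T cells. Siglecf had 3 and 0 UMIs in T cell-like cells.

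No cluster could be named eosinophil, the cell type from which the family takes its name. Over all kept cells Epx, which encodes eosinophil peroxidase, had 0 UMIs in both libraries, Prg2 had 5 and 6 and Prg3 4 and 1, while the receptor genes Ccr3 (96 and 73) and Il5ra (75 and 62) were read more. Cells with UMIs of at least 2 of these 5 markers numbered 4 in LPS and 5 in LPS_MCZ, and 0 had 3. In macrophages Epx, Prg2 and Prg3 were at 0 in both libraries, with Ccr3 at 0 and 1 and Il5ra at 2 and 0 UMIs. The Ear1, Ear2 and Siglecf signal of the macrophages was thus measured in cells without eosinophil granule transcripts at this depth. A low-depth cluster of the finer clustering, led by Ccl6 and Ccr3, was left unnamed (54 LPS and 32 LPS_MCZ cells, median 878 UMIs). Neutrophil was its nearest class and eosinophil the second, and it held 3 and 4 of the Prg2 UMIs and 3 and 1 of the Prg3 UMIs. Ccr3 was at 493 and 343 CPM there, against 1.13 and 1.29 CPM in neutrophil-like cells. Il5ra was at 84.9 and 24.5 CPM in the cluster, from 5 and 1 UMIs. The cluster gave 13 and 4 Ear6 UMIs in 4 and 3 cells (221 and 98.1 CPM). Siglecf gave 8 and 5 UMIs in 6 and 3 cells (136 and 123 CPM), and Ear1 gave 11 and 3 UMIs (187 and 73.6 CPM). The Ear6 and Siglecf levels thus stood above those of the macrophages, though they rest on few UMIs. The cells of this cluster held 13 of the 68 Ear6 UMIs of the LPS library and 4 of the 11 of LPS_MCZ.

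Other genes of the same pathways were counted from lists, with higher and lower again meaning more than 0.5 in macrophages, where 11.7% of all genes were higher and 6.02% lower. Of 15 other RNase A superfamily genes 1 reached 50 UMIs, the secreted ribonuclease gene Rnase4, which was higher (57 and 82 UMIs, log2 0.71). In the list of the RNase inhibitor and other ribonucleases 2 genes were lower. Rnh1, which encodes the inhibitor of this family, differed by 0.44, while the lysosomal RNase T2 genes Rnaset2b and Rnaset2a, which are near-identical copies, differed by -0.90 and -0.83. The median of this list was -0.23, beside 0.02 over all genes.

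Of 8 other Siglec genes 5 were measured, with a median of 0.03, and 1 was higher, where 11.7% of all genes were. Mag differed by 0.64 and Cd22 by 0.18, and Siglece, an inhibitory Siglec of myeloid cells, by -0.48 and Cd33 by -0.04. Of 18 genes for Siglec signalling and sialic acid synthesis 14 were measured, with a median of 0.11; the sialyltransferase gene St3gal1 was higher (0.64) and St3gal3 lower (-0.77), while the adaptor gene Hcst was at 0.43 and St3gal4 at -0.21. All 15 alveolar macrophage regulators were measured, with a median of 0.18. Of these 5 were higher and 1 was lower, where 11.7% and 6.02% of all genes were. Klf4, a transcription factor of myeloid cells, differed by 1.40 and Tgfbr2, a receptor for TGF-beta, by 0.65. At the other end Car4, which was also a marker of the class, differed by -0.58 and Csf2rb2 by -0.47. Of 10 type 2 ligand genes and 5 eosinophil granule and receptor genes 0 reached 50 UMIs.

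In classical monocyte-like cells, where 4.11% of all genes were lower, 1 of 3 measured RNase A genes was lower, Rnase6 (-0.51). Among Siglec genes 1 of 4 was lower, Siglece (-0.61), and among the alveolar macrophage regulators 3 of 14, Car4 (-0.85), Egr2 (-0.74) and Runx1 (-0.53). Rnase4 was at -0.02 there. Rnase2a had a larger difference than any of these named genes.

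Over 24 sums of 12 named classes in 2 libraries, the genes most like each member were found by Pearson correlation of log2(CPM + 10), a description across points that share library and depth. Only genes with at least 200 UMIs over all kept cells were ranked, which left out Ear6 and Ear10. Ear1 was most like Prune2 (0.98), Gpnmb (0.97), Kcnj15, Slc9a4 and Htr2c. Ear2 was most like Stra6l (0.98), Tmem273, Ttyh2, AU022793 and Bend6. Siglecf was most like Kcnn3 (1.00), Cidec (1.00), Lipf, AU022793 and Htr2c. Cidec was also a marker used to name the macrophages, so its likeness is partly built in. Siglecf was at 21.7 and 50.5 CPM in macrophages and at most 2.79 CPM in the other named classes. Ear1 and Ear2 were also highest in macrophages, so these correlations lean on the macrophage points. Rnase2a was most like the scavenger receptor gene Cd163 (0.93), the chemokine gene Ccl24 (0.93), Gm32089, Fabp7 and Elane. Ear6 and Ear10 had the same nearest 5 ranked genes, Calcr (0.94 and 0.97), Mmp13, C1ql2, Lad1 and Slc1a2. The values of both rest mainly on the LPS macrophages, where Ear6 was at 3.99 CPM and Ear10 at 20.2 CPM. Among the members Ear1 and Siglecf were alike at 0.95, Ear6 and Ear10 at 0.94, Ear2 and Siglecf at 0.89 and Ear1 and Ear2 at 0.84, and Rnase2a was between -0.08 and 0.11 with every other member.

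All 5 nearest genes had UMIs in the Ear10 cells. Among LPS macrophages, 3.03% of those with an Ear10 UMI and 4.36% of the others had a Calcr UMI, and the shares were 9.09% and 12.1% for C1ql2 and 51.5% and 50.8% for Lad1. The shares were 12.1% and 4.05% for Mmp13 and 42.4% and 12.5% for Slc1a2, in cells that were also deeper. Among macrophages Ear1 and Ear2 varied together, with a Pearson r of 0.64 over LPS cells and 0.68 over LPS_MCZ cells, and Ear2 was the gene most like Ear1. Next to it came Itm2b (0.45 and 0.43), Fcgrt, Nav2 and Selenop for Ear1, and Laptm5 (0.49 and 0.55), Psap, Nav2 and Itm2b for Ear2. Siglecf was most like Ptms (0.36 and 0.37), Ear2 (0.33 and 0.39), Lsp1, Ctsd and Fam129a. Cells of 1 library share their depth and their mix of clusters. Stretches shared with Ear1 made up 1.29% of those at the Ear2 transcript end. Their part in the correlation of Ear1 with Ear2 was not tested.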

How the data were processed

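Counts of 10x Genomics 3′ single-cell RNA libraries, 1 pooled library each for LPS and LPS_MCZ, were used as the authors deposited them: raw UMI counts per gene and barcode, from Cell Ranger 7.0.0 per the file headers, with bcl2fastq 2.20 and mm10 per the submitters' processing notes. Treatment of intronic reads is not given in the sources used here. Every deposited barcode had 500 UMIs or more.

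Barcodes needed 200 genes, 500 UMIs and no more than 20% mitochondrial UMIs. Scrublet marked 1 and 0 cells against expected rates of 9.66% and 6.65%, so doublets were not removed effectively. Cells were clustered together in scanpy 1.11.5 (2000 variable genes without the 6 members, 30 components, 15 neighbours, Leiden resolution 1.0, igraph 0.11.9), and 12 classes were named from markers of 25 classes. Clusters with a median depth more than 3 times below that of their library stayed unnamed, as did a cluster led by Il17a, by a rule set after the clusters were seen. Clusters at resolution 2.0 gave the split of the macrophages.

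UMIs were summed per class and library. Ratios are log2((CPM + 1) of LPS_MCZ over LPS). Intervals are exact Poisson, conditional binomial or Clopper-Pearson at 95% and cover counting error only; with 1 library per group there is no test. A count of 0 allows up to 3. Calls need 50 UMIs and a ratio past 0.5. Ratio scripts were tested on simulated data. Members and lists were chosen with earlier results of these data known; in each list the highest and lowest 2 measured genes in macrophages were named, and the nearest 5 genes of each member. Protein sequences are not used here, and 1 gene of the lists is not reported here.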

Additional observations from a re-analysis of the deposited data

Results flagged for a closer look

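Ear1 and Ear2 differed in opposite directions between classes. The log2 ratio of LPS_MCZ over LPS for Ear1 was 0.97 in alveolar macrophage-like cells, 0.65 in neutrophil-like cells and -0.86 in classical monocyte-like cells. For Ear2 it was 1.02 in macrophages, 0.97 in neutrophils and -0.78 in monocytes, where it reversed to 0.0173 with the stricter cell filter. Each class had 1 sample per library, and the difference between classes was not tested. The neutrophil levels of both genes were within a few CPM of those in T cell-like cells.

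Signal of members also appeared in cells outside the named classes, in the low-depth cluster led by Ccl6 and Ccr3. It held 13 Ear6 UMIs in LPS and 4 in LPS_MCZ (221 and 98.1 CPM), and 8 and 5 Siglecf UMIs (136 and 123 CPM). Of the eosinophil markers Epx was at 0 there and the other 4 were detected in both libraries, with neutrophil markers summing to 46221 and 83654 CPM; their part in the signal was not tested.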

How the results depend on the processing

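The direction in macrophages was kept under all 14 alternatives for 5 members, with ranges of 0.82 to 1.35 for Ear1, 0.99 to 1.49 for Ear2, 0.93 to 1.90 for Siglecf, -4.41 to -1.57 for Ear10 and -2.42 to -0.46 for Ear6, and in monocytes under 13 with -2.67 to -1.66 for Rnase2a and -1.11 to -0.20 for Ear1. The Ear10 and Ear6 values carry a pseudocount over 3 or fewer LPS_MCZ UMIs, which draws them toward 0. Macrophage Rnase2a had too few UMIs (11 and 3, interval -4.10 to 0.31) for a direction. Values that moved past counting error follow, and their cause was not tested. With each library clustered alone (282 and 287 macrophages) Ear1 was at 1.35, Ear2 at 1.49, Siglecf at 1.90 and monocyte Ear2 at -1.15. A gate on markers gave 0.82 for Ear1. Thinning to 2000 UMIs gave 1.15 for Ear2 and -1.78 for monocyte Rnase2a. A pseudocount of 10 CPM gave -1.57 for Ear10 and -1.66 for monocyte Rnase2a. Leaving out barcodes of both libraries, an alternative added after seeing the data, gave -2.67 for monocyte Rnase2a. Monocyte Ear2 reversed to 0.0173 with the stricter cell filter.

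Shares of macrophages with a UMI rise with depth by construction. At 1000 UMIs they were 16.7% and 26.7% for Ear1, 21.8% and 39.5% for Ear2, 2.82% and 2.26% for Siglecf, the reverse of the order at 2000 UMIs, 0.282% for Ear10 in LPS, and 0% for Ear6 and Rnase2a in LPS. With all UMIs they were 72.6% and 84.2% for Ear1, 79.4% and 95.1% for Ear2, 27.7% and 56.8% for Siglecf, and in LPS 9.32% for Ear10, 5.08% for Ear6 and 2.26% for Rnase2a. With at least 200 UMIs per gene 606 genes were higher and 349 lower, from fewer genes tested. Depth limits Ear10, Ear6 and Rnase2a most, with 1, 1 and 3 UMIs in LPS_MCZ macrophages. No paired analysis was possible because each group has 1 library.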
